A study of Homo sapiens with 6 samples.

Results

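LIG4 and 9 other core genes of non-homologous end joining were examined in RNA sequencing libraries of Huh7, a human hepatocellular carcinoma cell line. The 10 genes (LIG4, XRCC4, NHEJ1, XRCC5, XRCC6, PRKDC, DCLRE1C, PAXX, POLL and POLM) were taken by symbol from a table of 37822 genes, and all 10 were among the 14253 genes with enough counts to be tested. LIG4 was chosen by its lower count in the VPS72 libraries of this same experiment, so its own difference is given as a description with no test. The other 9 were taken for their function, and the question was whether they were lower too. The VPS72 group was 3 libraries of Huh7 cells given a lentivirus that overexpresses VPS72, which belongs to the chromatin remodelling complexes SRCAP and TIP60. The FLAG group was 3 libraries of Huh7 cells, labelled as wild type, given a FLAG control lentivirus. Both groups were exposed to virus for 24 h, so the controls were infected as well, and no uninfected cells are part of the comparison. All libraries come from 1 cell line, and the labels do not say that replicates were separate cultures, and the spread that p-values rest on may therefore be technical.

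Non-homologous end joining repairs a broken DNA duplex by ligating its ends without a template. The Ku heterodimer (XRCC5 and XRCC6) binds the ends and recruits the kinase DNA-PKcs (PRKDC), the nuclease Artemis (DCLRE1C) trims them, and the polymerases lambda (POLL) and mu (POLM) fill gaps. DNA ligase IV (LIG4) seals the break in a complex with XRCC4, helped by the scaffold proteins XLF (NHEJ1) and PAXX. In hepatocytes and in tumour cells it is a main route of repair outside S phase.

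Total estimated counts were 23969324 to 29091824 in the VPS72 libraries and 21345279 to 25352335 in the FLAG libraries. The targeted gene, VPS72, had 48.5 times the FLAG level, at 1150.3, 1173.3 and 1160.7 CPM in the VPS72 libraries against 26.7, 21.3 and 23.8 CPM in the FLAG libraries, in the direction of the labels. CPM is the count of a gene in a library after scaling all libraries to a common total by TMM. The 8 liver markers checked, led by AFP, summed to 12646.4 to 12934.9 CPM in VPS72 and 11021.5 to 11368.0 CPM in FLAG libraries. By edgeR's test across all genes 6 of the 8 rose, against 0.421% of tested genes. The markers of other cells were low in both groups. Sums over 5 fibroblast markers were 10.1 to 10.6 CPM in VPS72 and 9.91 to 11.3 CPM in FLAG libraries. Over 4 immune markers, led by LYZ, they were 12.9 to 14.0 CPM in VPS72 and 10.3 to 12.4 CPM in FLAG libraries. Over 4 endothelial markers they were 4.13 to 4.94 CPM in VPS72 and 2.79 to 4.55 CPM in FLAG libraries. Over 4 embryonic kidney markers, which a packaging cell line could carry over, they were 0.0845 to 0.341 CPM in VPS72 and 0.0785 to 0.326 CPM in FLAG libraries, too low to be tested. Of these 4 lists, 4 fibroblast, 1 immune, 1 endothelial and 0 kidney genes were tested. None passed, against 0.617% of all tested genes called in either direction, a share at which so few genes would hardly give a call. No marker was at 0 in all 6 libraries. The part of the liver marker difference in the results that follow was not tested. In bulk RNA, fewer cells with a transcript and less of it per cell cannot be told apart.

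RefSeq start sites (GRCh38.p14) show LIG4 as a gene with 5 annotated promoter windows, each of 250 bases before a start and 50 after it, spread over 3567 bases. The counts do not separate transcripts from these starts. The outermost start lies 43 bases from that of ABHD13, a gene on the opposite strand for a protein with a hydrolase fold, and their windows share 142 bases. POLL has the same layout with DPCD, whose start lies 51 bases from that of POLL. The windows below are shown because LIG4 was the low gene, XRCC4 is its obligate partner and POLL was the end joining gene with the highest fold change. They run 5′ to 3′ on the strand of the gene, and capitals mark matches to any of the 5 motifs searched. The first is the outermost LIG4 window at chr13:108218300-108218599, minus strand. The second is an inner LIG4 window at chr13:108215323-108215622, minus strand. It holds more of the motifs searched than any other LIG4 window. XRCC4 is at chr5:83077297-83077596, plus strand, and POLL at chr10:101588221-101588520, minus strand.
LIG4 outermost: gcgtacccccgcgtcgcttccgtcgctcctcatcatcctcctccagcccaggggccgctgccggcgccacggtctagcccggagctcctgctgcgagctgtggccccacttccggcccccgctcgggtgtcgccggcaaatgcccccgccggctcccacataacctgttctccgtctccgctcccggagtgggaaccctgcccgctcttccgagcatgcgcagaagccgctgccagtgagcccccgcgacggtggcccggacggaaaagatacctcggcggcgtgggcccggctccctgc
LIG4 inner: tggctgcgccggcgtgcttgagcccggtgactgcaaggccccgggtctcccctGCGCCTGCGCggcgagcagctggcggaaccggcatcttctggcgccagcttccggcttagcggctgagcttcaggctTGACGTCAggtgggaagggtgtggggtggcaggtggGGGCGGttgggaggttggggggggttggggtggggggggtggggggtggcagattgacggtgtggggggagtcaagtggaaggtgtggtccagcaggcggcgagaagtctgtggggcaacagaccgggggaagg
XRCC4: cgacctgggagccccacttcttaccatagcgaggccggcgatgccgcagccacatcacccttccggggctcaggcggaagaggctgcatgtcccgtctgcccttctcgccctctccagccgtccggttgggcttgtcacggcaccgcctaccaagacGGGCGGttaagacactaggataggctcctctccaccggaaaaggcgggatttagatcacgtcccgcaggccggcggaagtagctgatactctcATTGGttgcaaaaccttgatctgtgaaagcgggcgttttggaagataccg
POLL: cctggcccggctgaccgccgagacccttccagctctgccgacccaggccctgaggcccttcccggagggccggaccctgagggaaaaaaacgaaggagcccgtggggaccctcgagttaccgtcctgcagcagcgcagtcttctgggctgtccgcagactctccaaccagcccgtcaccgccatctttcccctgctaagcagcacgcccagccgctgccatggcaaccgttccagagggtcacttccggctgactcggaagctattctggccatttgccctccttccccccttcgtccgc

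Promoter windows were used for 8 of the 10 genes, 15 windows in all, and motifs were searched on both strands. Windows on chromosome 8, that of PRKDC, were left out among the members but kept in the windows of all genes. XRCC5 had no window. The first motif, TGACGTCA, is the site that ATF and CREB factors recognise. The second, TGANTCA, is that of AP-1 factors. The GC box was searched as GGGCGG. The CCAAT box was searched by its 5 letters, which read ATTGG on the other strand. The last motif was the palindromic site of the factor NRF1. TGACGTCA was in 2 of these 15 windows, against 1.85% of the 35116 windows of all genes. Both were inner LIG4 windows that overlap and hold the same site, 120 to 113 bases before the start in the window printed. It overlapped no other motif searched. The printed inner window also holds a GC box and an NRF1 site, which are in 45.0% and 5.78% of all windows. TGANTCA was in 1 of the 15 member windows, of DCLRE1C, against 7.71% of all windows. The outermost LIG4 window and the printed POLL window hold none of the 5. The other POLL window, at chr10:101588208-101588507, holds a CCAAT box. The XRCC4 window holds a GC box and a CCAAT box, the second in 34.6% of all windows. Binding of any factor was not measured in these data, and a match is a string of letters, not a bound site.

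LIG4 mRNA was 45.4% lower in the VPS72 libraries. It stood at 9.46, 11.3 and 9.12 CPM in VPS72 replicates 1 to 3, against 18.9, 18.6 and 17.3 CPM in FLAG replicates 1 to 3. All 3 VPS72 libraries lay below every FLAG library, and the lowest FLAG library was well above the highest VPS72 library. The underlying counts were 272, 299 and 216 in VPS72 and 484, 474 and 372 in FLAG libraries. The log2 fold change was -0.87 ± 0.11 (SE, n = 3 per group), fitted with edgeR's quasi-likelihood model on counts scaled by TMM. Since LIG4 was chosen for this difference, no p is given. By fold change LIG4 ranked 153 from the lowest of 14253 tested genes, and 0 of the genes ranked lower had a mean of at least 5 CPM. The rank rests on the difference that chose the gene, so it too is a description.

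None of the other 9 genes passed the test. At a Benjamini-Hochberg adjusted p of 0.05 in edgeR's quasi-likelihood test over all tested genes, 0 of 9 fell and 0 of 9 rose, against 0.196% of tested genes that fell and 0.421% that rose (0.617% in either direction). At an unadjusted p of 0.05, 1 of the 9 passed, against 11.5% of tested genes. The log2 fold changes of the 9 had a median of -0.01, against a median of 0.00 over all tested genes, with 4 positive and 5 negative. The 95% intervals of all 9 lay above the value of LIG4, as did those of 87.4% of tested genes. That value chose LIG4 and was taken without its SE of 0.11, so this comparison is a description. The lowest bound among the 9 was -0.53, for PAXX, which corresponds to a level 30.6% lower.

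**Figure D1:**
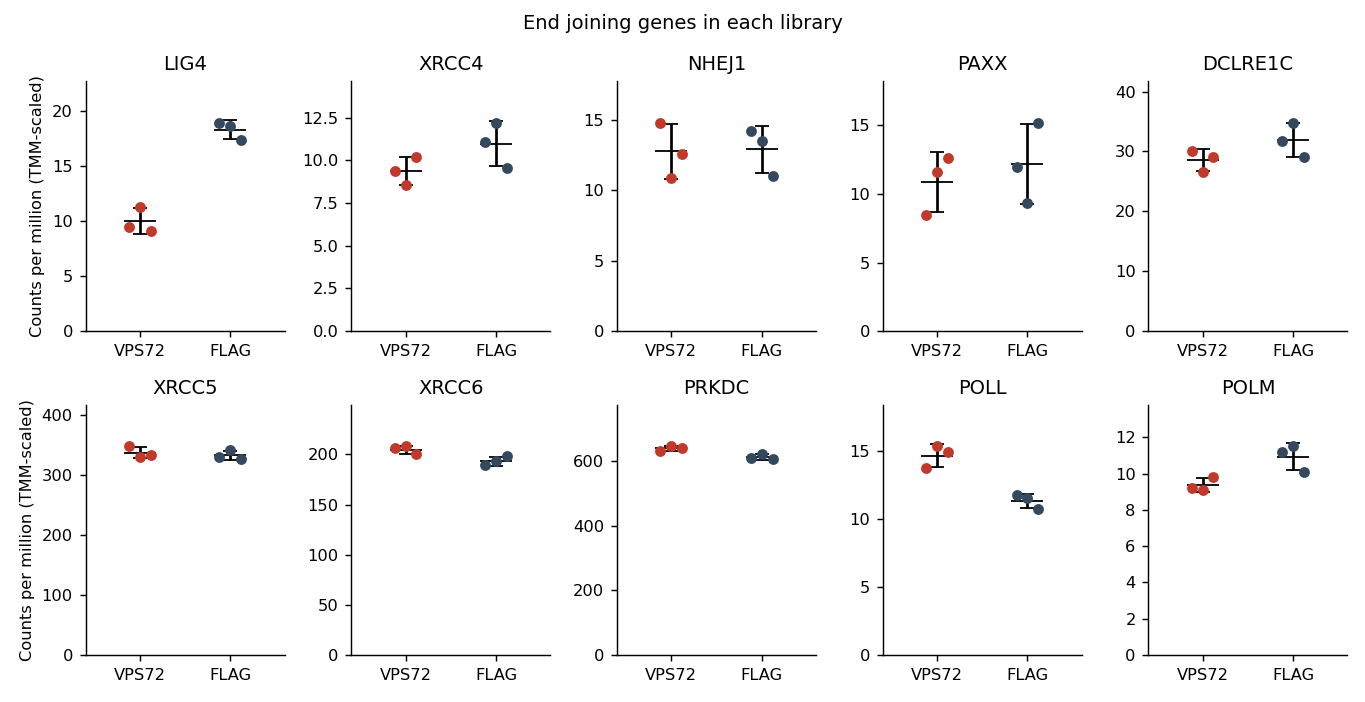
Each panel plots the TMM-scaled CPM of 1 gene in 3 VPS72 libraries (left) and 3 FLAG libraries (right). Points are libraries, the wide bar is the mean and the whiskers are the SD, and axes start at 0. LIG4 lies at 9.12 to 11.3 CPM in VPS72 and 17.3 to 18.9 CPM in FLAG libraries, while XRCC4, NHEJ1, PAXX, DCLRE1C and XRCC5 overlap between the groups.

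Among the partners of the ligase, XRCC4, which holds and stabilises LIG4 protein, stood at 9.35, 8.56 and 10.2 CPM in VPS72 libraries and 11.1, 12.2 and 9.58 CPM in FLAG libraries. The groups overlapped, since VPS72 replicate 3 lay above FLAG replicate 3. The log2 fold change of -0.23 ± 0.13 did not pass (95% interval -0.50 to 0.05; edgeR, Benjamini-Hochberg adjusted p = 0.538). NHEJ1, the XRCC4-like factor that forms filaments with XRCC4, had 14.8, 10.9 and 12.6 CPM in VPS72 and 14.2, 13.5 and 11.0 CPM in FLAG libraries. The lowest and the highest NHEJ1 value were both in VPS72 libraries. Its interval was -0.30 to 0.27 around a log2 fold change of -0.01 (edgeR, Benjamini-Hochberg adjusted p = 0.984). PAXX, the third XRCC4-fold protein, which binds Ku, had 8.45, 11.6 and 12.6 CPM in VPS72 and 12.0, 9.34 and 15.2 CPM in FLAG libraries. PAXX had the widest spread of the 10 genes for its level, and its interval of -0.53 to 0.20 was the widest (-0.16 ± 0.17 on the log2 scale; edgeR, Benjamini-Hochberg adjusted p = 0.796).

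The Ku and DNA-PKcs genes differed little between the groups, by at most 5.8%, for XRCC6. XRCC5, the larger Ku subunit, averaged 337 ± 9.14 CPM in VPS72 and 333 ± 7.97 CPM in FLAG libraries (SD, n = 3 per group), with overlapping values. Its interval of -0.06 to 0.10 around 0.02 was among the narrowest (edgeR, Benjamini-Hochberg adjusted p = 0.903). XRCC6, the smaller Ku subunit, had 206, 208 and 200 CPM in VPS72 and 189, 193 and 198 CPM in FLAG libraries. All 3 VPS72 values were above all FLAG values by a small step, and the log2 fold change of 0.08 ± 0.04 did not pass (edgeR, Benjamini-Hochberg adjusted p = 0.446). The 5 XRCC6 pseudogenes of the table took at most 14 counts each over all 6 libraries. PRKDC, the large kinase that Ku activates, had 630, 645 and 641 CPM in VPS72 and 610, 623 and 606 CPM in FLAG libraries. Here too the groups did not overlap, with a log2 fold change of 0.06 ± 0.03 (edgeR, Benjamini-Hochberg adjusted p = 0.471).

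DCLRE1C, the Artemis nuclease that opens hairpins and trims ends with DNA-PKcs, had 30.1, 26.6 and 29.1 CPM in VPS72 and 31.8, 34.8 and 29.1 CPM in FLAG libraries. All 3 VPS72 libraries were below the FLAG mean, but the groups overlapped, since VPS72 replicate 1 lay above FLAG replicate 3. The log2 fold change was -0.16 ± 0.08 (95% interval -0.34 to 0.02; edgeR, Benjamini-Hochberg adjusted p = 0.493). DCLRE1C overlaps SUV39H2 and MEIG1 on the reference, and no source used here says whether counting used strand, so reads in stretches they have in common may be divided between them.

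The gap-filling polymerases lay on opposite sides of no change. POLL had 13.7, 15.3 and 14.9 CPM in VPS72 and 11.7, 11.5 and 10.7 CPM in FLAG libraries, with all VPS72 values above all FLAG values. Its log2 fold change was 0.37 ± 0.11 (95% interval 0.15 to 0.60), with an unadjusted p of 0.00315 in edgeR's quasi-likelihood test and a Benjamini-Hochberg adjusted p = 0.145. It did not pass here, and passed with a trend in GC content and transcript length removed (edgeR, Benjamini-Hochberg adjusted p = 0.0493, log2 fold change 0.40). With that trend removed 334 of all tested genes were called higher, against 60 with the trend kept. Over the alternatives that gave POLL an adjusted p, all by edgeR or limma, that p ranged from 0.0493 to 0.35, and DESeq2 left it undefined. POLM, the closest relative of POLL in this pathway, had 9.18, 9.09 and 9.84 CPM in VPS72 and 11.2, 11.5 and 10.1 CPM in FLAG libraries. All VPS72 values of POLM were below all FLAG values, but the log2 fold change, -0.23 ± 0.12, missed the threshold (edgeR, Benjamini-Hochberg adjusted p = 0.49). In all, 3 of the 9 genes were higher (XRCC6, PRKDC and POLL) and 1 lower (POLM) in VPS72 with no overlap between the groups, against 8.76% and 8.47% of tested genes.

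**Figure D2:**
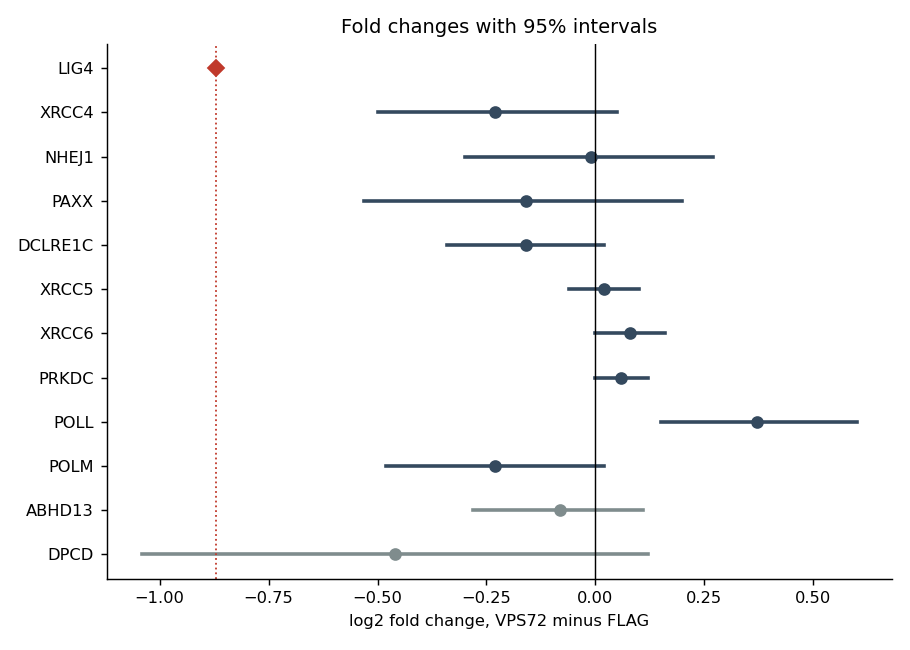
Log2 fold change, VPS72 minus FLAG, of each end joining gene and of 2 neighbours, ABHD13 beside LIG4 and DPCD beside POLL, with 95% intervals from edgeR as bars. LIG4 is a diamond with no interval because it was chosen for its value of -0.87, which the dotted line marks, and the intervals of the other 9 end joining genes lie to the right of that line.

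Ratios of counts within 1 library do not depend on scaling between libraries. They compare mRNA counts with no correction for transcript length, so only their difference between the groups is read. The LIG4 to XRCC4 ratio was 1.01, 1.32 and 0.893 in VPS72 and 1.70, 1.52 and 1.81 in FLAG libraries. Both genes encode parts of 1 complex, and the ratio averaged 1.08 ± 0.222 in VPS72 and 1.68 ± 0.143 in FLAG libraries (SD, n = 3 per group), with no overlap. Per kb of transcript, mean LIG4 was below mean XRCC4 in both groups. LIG4 had 2.38 CPM per kb against 5.53 for XRCC4 in VPS72, and 4.37 against 6.46 in FLAG libraries. The LIG4 to ABHD13 ratio averaged 0.477 ± 0.0997 in VPS72 and 0.816 ± 0.031 in FLAG libraries. Both of these ratios carry the LIG4 difference that chose the gene, so they are descriptions. The POLL to POLM ratio was 1.50, 1.68 and 1.51 in VPS72 and 1.04, 1.00 and 1.06 in FLAG libraries. The groups do not overlap here, which follows from the separate values of both genes. The XRCC5 to XRCC6 ratio, between the mRNAs of both Ku subunits, was 1.65 ± 0.0573 in VPS72 and 1.72 ± 0.0616 in FLAG libraries, with overlap. The ratios were not tested.

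**Figure D3:**
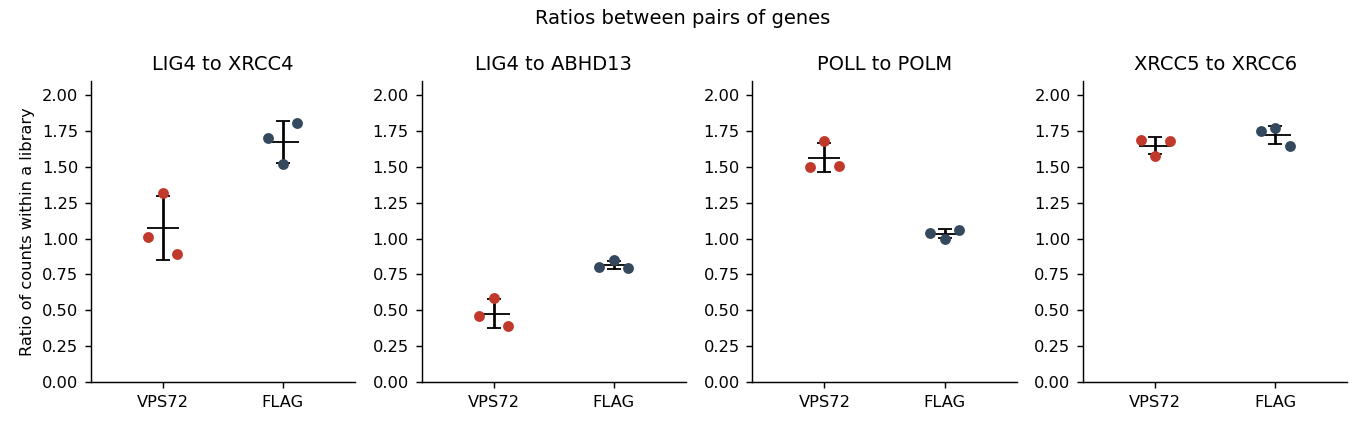
Ratio of CPM between 2 genes in each library, VPS72 left and FLAG right, with points for libraries, a wide bar for the mean and whiskers for the SD. CPM is not corrected here for transcript length. The POLL to POLM ratio lies at 1.50 to 1.68 in VPS72 and 1.00 to 1.06 in FLAG libraries, while the XRCC5 to XRCC6 ratio overlaps.

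Levels were compared between genes as CPM per kb of the longest GENCODE 29 protein-coding transcript. Ku and DNA-PKcs transcripts were the abundant ones. XRCC5 had 89.7 ± 2.43 CPM per kb in VPS72 and 88.5 ± 2.12 in FLAG libraries, XRCC6 had 75.5 ± 1.68 in VPS72 and 71.4 ± 1.63 in FLAG libraries, and PRKDC had 47.3 ± 0.587 in VPS72 and 45.4 ± 0.684 in FLAG libraries. These 3 genes held 92.3% to 92.7% of the estimated counts of the 10 genes in VPS72 and 91.0% to 91.7% in FLAG libraries. PAXX followed with 13.4 ± 2.67 CPM per kb in VPS72 and 15.0 ± 3.59 in FLAG libraries, and DCLRE1C with 8.10 ± 0.524 in VPS72 and 9.04 ± 0.810 in FLAG libraries. In FLAG libraries XRCC4 (6.46 ± 0.775) and NHEJ1 (6.16 ± 0.811) came next and overlapped each other, and LIG4 (4.37 ± 0.20), POLM (4.16 ± 0.288) and POLL (4.04 ± 0.196) closed the order with overlapping values. In VPS72 libraries the order from the sixth gene down was NHEJ1 (6.10 ± 0.934), XRCC4 (5.53 ± 0.489), POLL (5.24 ± 0.285), POLM (3.56 ± 0.156) and LIG4 (2.38 ± 0.284). LIG4 overlapped no other gene there, while XRCC4 overlapped both NHEJ1 and POLL. The place of LIG4 in VPS72 libraries carries the difference that chose the gene, so it is a description. With the median transcript length in place of the longest, LIG4 stayed at rank 10 in VPS72 and took rank 9 in FLAG, and XRCC6 stood above XRCC5 in VPS72 libraries. POLL then moved to rank 6 in VPS72, above NHEJ1 and XRCC4, and to rank 8 in FLAG, so the order of these low genes depends on the length used.

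**Figure D4:**
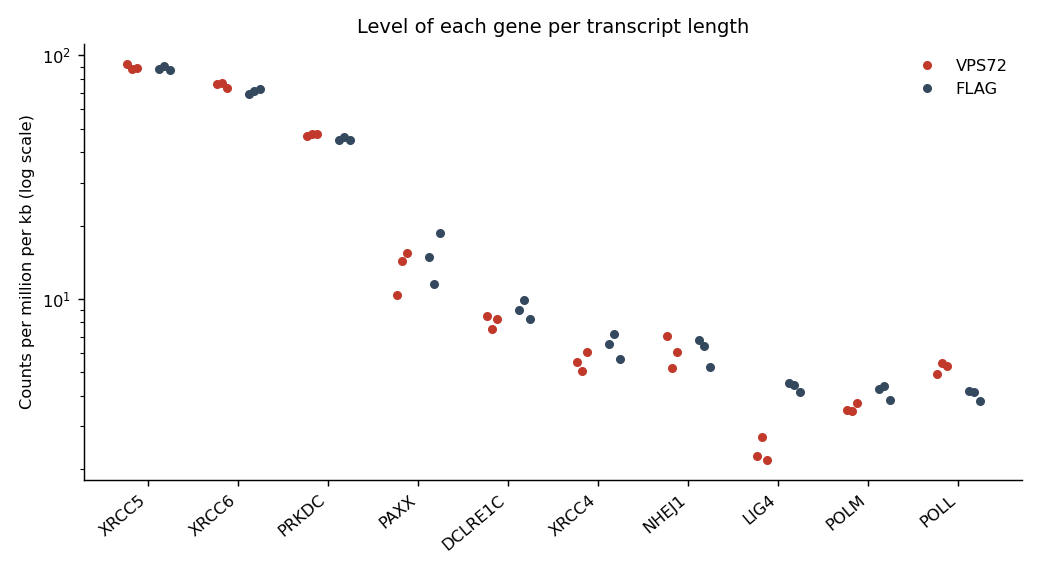
CPM per kb of transcript on a log axis for each gene, ordered by the FLAG mean, with VPS72 libraries left of FLAG libraries at each gene. XRCC5, XRCC6 and PRKDC lie at 44.9 or more in every library, and LIG4 lies at 2.18 to 2.71 in VPS72 and 4.14 to 4.51 in FLAG libraries.

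The genes beside the 10 on the reference were examined next. Of 20 neighbouring protein-coding genes (the next one on each side), 13 were tested, and 0 rose and 0 fell by edgeR's test, against 0.617% of all tested genes called in either direction, a share at which so few genes would hardly give a call. The smallest Benjamini-Hochberg adjusted p was 0.102. ABHD13, which faces LIG4 head to head, had 20.6, 19.4 and 23.5 CPM in VPS72 and 23.5, 21.9 and 21.8 CPM in FLAG libraries. The groups overlapped, and the interval of -0.28 to 0.11 around -0.08 (log2) did not reach the value of LIG4 (edgeR, Benjamini-Hochberg adjusted p = 0.802). That value chose LIG4, so the comparison with it is a description. On the other side of LIG4 lies LOC124903206, which is not analysed here. DPCD, which faces POLL and was named after its values were seen, had the lowest log2 fold change of the 13, -0.46 ± 0.27 (95% interval -1.04 to 0.12; edgeR, Benjamini-Hochberg adjusted p = 0.558), with 2.44 ± 0.528 CPM in VPS72 and 3.39 ± 1.10 CPM in FLAG libraries.

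Genes that help end joining or compete with it were also examined. None was called in any of these lists, against 0.421% of all tested genes that rose and 0.196% that fell, so lists of this size would hardly give a call at the background share. Of 15 accessory genes, 13 were tested, with 0 higher, 0 lower and a median log2 fold change of 0.00. PRPF19, a ubiquitin ligase and the most abundant of them, had a log2 fold change of 0.04 ± 0.04 and ERCC6L2, a helicase-like factor that promotes end joining, of -0.12 ± 0.05 (edgeR, Benjamini-Hochberg adjusted p = 0.766 and 0.405). Of 17 genes of break signalling and of the choice between repair routes, 0 rose and 0 fell, with a median of -0.05. RIF1, which shields ends from resection together with 53BP1, stood at 0.05 ± 0.04 and DYNLL1, which helps that shield, at 0.09 ± 0.04. Of 11 genes of alternative end joining, 0 rose and 0 fell, with a median of 0.03. POLQ, its polymerase, stood at 0.03 ± 0.04 and PARP1, which senses nicks and breaks, at 0.07 ± 0.04.

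Homologous recombination copies an intact template. Of its 20 genes tested, 0 rose and 0 fell, against 0.617% of all tested genes called in either direction, and the median log2 fold change was 0.03. The 95% interval of 1 of the 20 reached the LIG4 value, against 1790 of the 14253 tested genes. It was that of RAD51B, named after its values were seen, at -1.09 to 0.23 with 29 to 73 counts per library. No interval of a tested gene in the accessory, signalling and alternative end joining lists did. TOP3A, a topoisomerase that helps take apart joined duplexes, had a log2 fold change of 0.14 ± 0.05 and BRCA2, a tumour suppressor that this route needs, of -0.01 ± 0.05 (edgeR, Benjamini-Hochberg adjusted p = 0.217 and 0.962). At an unadjusted p of 0.05, 1 accessory gene, 4 signalling genes, 1 gene of alternative end joining and 2 of homologous recombination passed, against 11.5% of all tested genes. The intervals of the other DNA ligases did not reach the LIG4 value. Since that value chose LIG4, all these comparisons of intervals with it are descriptions. LIG1, the ligase of replication, averaged 43.4 ± 3.12 CPM in VPS72 and 41.2 ± 0.972 CPM in FLAG libraries, with a 95% interval of -0.07 to 0.22. LIG3, which seals breaks with XRCC1 and in mitochondria, averaged 76.6 ± 4.67 CPM in VPS72 and 76.7 ± 3.32 CPM in FLAG libraries, with an interval of -0.12 to 0.11.

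**Figure D5:**
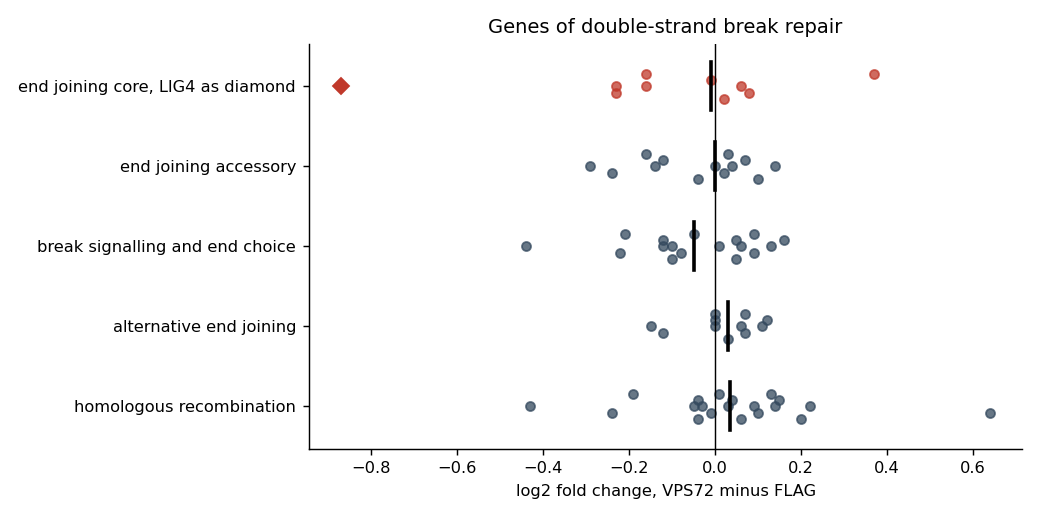
Log2 fold change, VPS72 minus FLAG, of each tested gene in 5 lists of repair genes. Points are genes and the black bar is the median of the list, LIG4 left out, from -0.05 for break signalling and end choice to 0.03 for alternative end joining and homologous recombination. LIG4, at -0.87, lies left of every other gene plotted.

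Among those lists, the MRE11, RAD50 and NBN transcripts of the MRN complex, which tethers ends and starts resection, were looked at after their values were seen. RAD50 had 5.81, 8.60 and 10.0 CPM in VPS72 and 11.5, 10.1 and 11.4 CPM in FLAG libraries, with VPS72 replicate 1 the lowest. MRE11 had 37.8, 38.3 and 38.2 CPM in VPS72 and 35.0, 34.0 and 32.9 CPM in FLAG libraries. The log2 fold changes were -0.44 ± 0.17 for RAD50, 0.16 ± 0.07 for MRE11 and 0.09 ± 0.07 for NBN, and none passed (edgeR, Benjamini-Hochberg adjusted p = 0.303, 0.327 and 0.693).

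The 5 tested genes with a pattern most like that of LIG4 were taken by Euclidean distance over the 6 libraries between log2 CPM values centred on the FLAG mean. They were CCDC106 (distance 0.26), ST7-AS1 (0.28), SDCBP2 (0.29), NEBL (0.36) and LINC00958 (0.38). All 5 were expressed at lower levels than LIG4, with log2 fold changes from -1.05 for LINC00958 to -0.76 for CCDC106. Since likeness to LIG4 chose them, these are descriptions with no test. CCDC106 had 78, 80 and 55 counts in VPS72 and 116, 124 and 92 counts in FLAG libraries, and the other 4 had at most 78 counts in any library. The nearest of the 9 end joining genes was POLM, at rank 1000 of 14252 genes with a distance of 1.17, and the farthest was POLL, at rank 13403 with 2.16.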

How the data were processed

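RNA was measured in 6 libraries of Huh7 cells, 3 VPS72 and 3 FLAG, grouped by sample title. RNA came from RNAzol extraction and libraries from KAPA's RNA HyperPrep kit, per the labels' protocols. The authors deposited 1 table of estimated counts per gene as whole numbers, not normalized. Per the submitters' processing notes, STAR, RSEM and limma were used, and both hg19 and hg38 appear with no role stated. No source used here gives versions, the annotation or the use of strand.

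Genes were filtered with filterByExpr (minimum count of 10, minimum total of 15), which kept 99.925% of counts, scaled by TMM and tested with edgeR 4.0.16 (quasi-likelihood, Benjamini-Hochberg over 14253 genes, threshold 0.05) in R 4.3.3. The standard error is the log2 fold change divided by the square root of F, and 95% intervals use the model's degrees of freedom. The code of the test was checked on counts simulated from the model's own means and dispersions. Such counts hold no error of library making and no trend in GC content or length. DESeq2 1.42.0 and limma 3.58.1 served as alternatives. Libraries of a group differed beyond sampling noise (chi-square over degrees of freedom 4.70 to 7.69), so none was taken as a repeat deposit. Intervals do not cover errors of library making shared by a group.

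Members and lists were chosen with earlier results of these data known. Named were all 10 members, VPS72, up to 4 genes of each repair list past the threshold (otherwise the 2 most abundant), the neighbours of LIG4 and the 5 genes most like LIG4. Promoter windows are from RefSeq, GRCh38.p14. They and GENCODE 29 lengths may differ from the annotation used upstream, whose build is not given, and gene coordinates of the counts are not printed.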

Additional observations from a re-analysis of the deposited data

How the results depend on the processing

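The log2 fold change of LIG4 stayed between -0.97 and -0.81 over all 16 alternatives, which were other scalings, filters and tests, the replicate number as a block, removal of trends and each library left out, and the shifts were smaller than the within-group SD of its log2 CPM (0.13). With the replicate block it was -0.88. The 9 other end joining genes gave 0 lower calls in every alternative, where an adjusted p was defined. They gave 0 higher calls except with the GC and length trend removed, where POLL passed (0.40) and the count was 1. In that setting 334 of all tested genes were called higher, against 60 in the main fit. Without single libraries the log2 fold change of POLL was 0.33 to 0.42. The repair lists, LIG4 left out, gave 0 calls in every alternative. DESeq2 left the adjusted p of genes below a mean normalized count of 837 undefined, which took in LIG4 and all of the 9 but XRCC5, XRCC6 and PRKDC. Library size alone moved the median over tested genes to -0.04, from 0.00 with TMM.

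Some values near 0 changed sign. NHEJ1 was 0.01 after removal of the abundance trend and 0.003 after that of the GC and length trend, and -0.13 to 0.09 without single libraries. XRCC5 was -0.01 with library size alone and -0.02 with the abundance trend removed, and 0.003 to 0.04 without single libraries. PAXX was 0.02 without FLAG replicate 3 and 0.0008 without VPS72 replicate 1, within -0.32 to 0.02. BRCA2 was 0.02 once the GC and length trend had been taken out and -0.06 to 0.02 without single libraries, and POLQ was -0.0002 with library size alone. The causes were not tested.

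The count of called genes, 88, was 264 without a low-count filter, 249 with DESeq2, 32 with the replicate block, 54 without the abundance trend and 402 without that of GC and length, and 25 to 100 without single libraries, the lowest without FLAG replicate 1. Library size alone gave 32 higher and 54 lower, against 60 and 28 with TMM. Same-numbered libraries of the groups had correlations of -0.05, 0.03 and 0.06 between their deviations from the group means, so the numbers were not taken as pairs, and under the replicate block none of the 9 was called. Counts per library ran from 206 for XRCC4 to 18111 for PRKDC, and the interval of PAXX, the widest of the 9, still allows a level 30.6% lower.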

Other observations

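The following values were looked at after the data were seen. RAG1, a subunit of the recombinase that makes the breaks of antigen receptor genes in lymphocytes, had 2.12, 1.63 and 2.37 CPM in VPS72 and 2.26, 2.43 and 2.79 CPM in FLAG libraries of this liver line, with 43 to 62 counts per library. Its partner RAG2 had 0 counts in all 6 libraries, and DNTT, the lymphocyte polymerase that adds bases at those joins, had 1 count in 1 FLAG library and 0 in the others. The log2 fold change of RAG1 was -0.29 ± 0.26 and did not pass (edgeR, Benjamini-Hochberg adjusted p = 0.746).

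H2AX, the histone variant that is phosphorylated around breaks, varied within both groups, at 23.2, 29.4 and 40.5 CPM in VPS72 and 37.4, 21.6 and 42.1 CPM in FLAG libraries. The groups overlapped, with an SD of 8.73 CPM in VPS72 and 10.7 CPM in FLAG libraries.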
